A study of Mus musculus with 120 samples.

Results

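The mice described here are the 50 members of an F2-ob/ob panel of 110 mice that carry no liver array. They were found by number, as the mice of the larger genotype and phenotype table that the table of the 60 mice with arrays does not list. They were 27 females and 23 males. All 110 mice came from the same cross of C57BL/6J and BTBR, with a male C57BL/6J and a female BTBR grandparent, and all were homozygous for the ob mutation of leptin, so no lean control enters any comparison. The mice with arrays, 31 females and 29 males, were chosen from the panel by an algorithm that reads genotypes, so the remaining mice are not a random sample of it. Mice ate chow freely and were killed at 14 weeks of age after a fast of 4 h. The groups compared were the genotypes at the microsatellite marker D2Mit263, at 98.7 cM on Chromosome 2, given in the table as A, H (heterozygous) and B. That locus was described from the mice with arrays, so their values at it are not independent of its choice. The paper also states that obesity-related traits had been mapped to distal Chromosome 2. For this it cites, among others, the report it cites for the F2 mice that the 60 came from. It places its own fasting insulin locus there too. Whether the 50 mice entered that mapping is not given, so they may not be independent of it for plasma traits and weight. Which founder strain A and B stand for is not given by any source used here. Of the 50 mice, 9 were A, 26 H and 10 B, and 5 had no call.

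The ob mutation removes leptin, the fat cell hormone that limits food intake, and leaves mice obese and insulin resistant. Such mice stay nearly normal in glucose while their islets secrete enough insulin. As islets fail, insulin drops and glucose climbs. Insulin also drives the liver to make fat, in part through stearoyl-CoA desaturase 1 (Scd1), which makes monounsaturated fatty acids, and it holds back phosphoenolpyruvate carboxykinase (Pck1), a gluconeogenic enzyme. In an F2 cross every animal is a separate genetic draw, so each mouse is a replicate of the alleles it carries at a marker.

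The traits were body weight and fasting glucose, insulin and triglyceride of plasma, each at 8 and 10 weeks, liver triglyceride, the raw Ct of beta-actin, and RT-qPCR of 12 liver genes, which makes 22 traits. The RT-qPCR values are given as delta Ct, with no direction stated. In the mice with arrays, 8 of these genes could be set beside MOE430A probe sets, and all 8 correlations were above 0. After adjustment over the 8, r passed the threshold for 7 of them (permutation test). For Scd1, r was 0.93 and rho 0.80 over 60 mice (adjusted permutation p = 2.00e-05 and 2.67e-05), and r without the 2 mice farthest from the median array level was 0.90. A higher value is therefore read below as more transcript. Cpt1a, carnitine palmitoyltransferase of liver, had an r of 0.28 that did not pass (adjusted permutation p = 0.0570), while its rho of 0.34 (0.0166) and its r of 0.45 with the single probe set of highest level (0.00142) did. For Pparg, r was 0.38, and 0.27 without the 2 mice farthest from the median (permutation p = 0.0663). The mice without arrays had no other transcript measured, so the liver could not be checked by cell markers in them.

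The sets of mice differed in genotype. Heterozygous calls made up 53.7% of the calls at 194 markers in the mice without arrays and 46.2% in the mice with arrays, and missing calls made up 10.6% and 6.88%. At D2Mit263 the counts did not depart from 1 to 2 to 1 in the mice without arrays (exact p = 0.634) or in the mice with arrays, which held 15 A, 25 H and 20 B (exact p = 0.276). At D5Mit240, on Chromosome 5, the mice without arrays were 5 A, 33 H and 7 B (exact p = 0.00805), and those with arrays 22 A, 16 H and 20 B (exact p = 0.00214). The A mice with arrays were mostly male, 11 of 15, while the mice without arrays held 5 males among 9 A and 3 males among 10 B. Sex moved with traits in both sets. In the mice without arrays, males had glucose at 8 weeks 104 ± 27.3 mg/dl (SE) above females (adjusted permutation p = 0.00301), and the same difference with arrays was 112.9 ± 28.2 mg/dl (adjusted permutation p = 0.00143). Triglyceride at 8 weeks was 0.21 ± 0.05 higher in males on the log10 scale without arrays (adjusted permutation p = 6.60e-04) and 0.11 ± 0.03 with arrays (0.00973). With arrays, males also weighed 4.17 ± 1.43 g less at 10 weeks (adjusted permutation p = 0.0221) and had Pltp, phospholipid transfer protein, 1.28 ± 0.35 Ct lower (0.00550). Without arrays those differences did not pass adjustment (0.672 and 0.123).

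Measurements of the mice without arrays held together within a mouse. Body weight at 8 and 10 weeks correlated at r = 0.85 and rho = 0.86 over 45 mice, and 0.82 without the 2 mice farthest from the median. Glucose gave r = 0.73 over 47 mice, triglyceride 0.71 over 38, and insulin 0.58 over 43 (adjusted permutation p at most 9.00e-05 for each r). Insulin at the same weeks gave 0.77 over 52 mice with arrays. A transcript tied to another locus was examined too, chosen after its values were seen. Protein disulfide isomerase, an enzyme that folds secreted proteins, gave its highest LOD score in either set at D11Mit48 on Chromosome 11. A LOD score is the log10 of the likelihood with the marker over that without it. It was 12.7 over 34 mice without arrays and 19.2 over 38 mice with arrays (permutation p = 1.00e-05 in each, the smallest that 100000 permutations can give). Without arrays, delta Ct ran from -7.04 to -3.35 (median -4.59) in 9 A mice and from -0.24 to 1.29 (median 0.45) in 10 B mice. These homozygotes did not overlap, so genotype and RT-qPCR of this gene went together in the mice without arrays.

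Body weight at 10 weeks had the smallest p at D2Mit263 of the 22 traits in the mice without arrays, and it ran the same way as in the mice with arrays. At 10 weeks the 9 A mice without arrays weighed 51.5 to 68 g (median 57), the 26 H mice 45.3 to 73.7 g (median 60.6) and the 10 B mice 55.2 to 73.4 g (median 64.1). The groups overlapped, but 9 of 10 B mice were above the A median and 1 of 9 A mice was above the B median. Each B allele went with 3.76 ± 1.29 g (SE), a LOD score of 1.80 and p = 0.0205 (permutation of the 3 groups), which did not pass adjustment over the 22 traits (adjusted permutation p = 0.308). From here on, p beside the slope of a set is that of the 3 groups unless another test is named. The homozygotes alone differed by an exact permutation test (p = 0.0153), also before adjustment. In the mice with arrays the slope was 2.79 ± 0.94 g per B allele (adjusted permutation p = 0.0401, 60 mice), and it was 0.0954 with sex as a covariate. The slopes differed by 0.97 g, with a 95% interval of -2.15 to 4.09 g (adjusted permutation p = 0.754).

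At 8 weeks the medians stood in the same order. The 7 A mice without arrays weighed 43.6 to 58.7 g (median 51.3), the 23 H mice 48 to 67.2 g (median 54.4) and the 10 B mice 50.7 to 62.6 g (median 58.1). Again 9 of 10 B mice lay above the A median, with 1 of 7 A mice above the B median. The slope was 2.97 ± 1.16 g per B allele without arrays (permutation p = 0.0324, adjusted 0.308) and 2.12 ± 0.85 g with arrays (permutation p = 0.0523, adjusted 0.0958). Over all mice with a call the 10-week slope was 3.09 g, with a LOD score of 3.42 (105 mice, adjusted permutation p = 0.00359), and the 8-week slope 2.44 g (95 mice, adjusted permutation p = 0.00957). Those pooled values hold the mice with arrays and are no separate evidence. Within sexes of the mice without arrays, the 10-week slope was 3.46 g in 24 females (permutation p = 0.155) and 3.85 g in 21 males (permutation p = 0.228). Leaving out each mouse in turn kept the slope between 3.27 and 4.39 g, and p stayed under 0.05 in 43 of 45 cases.

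**Figure D1:**
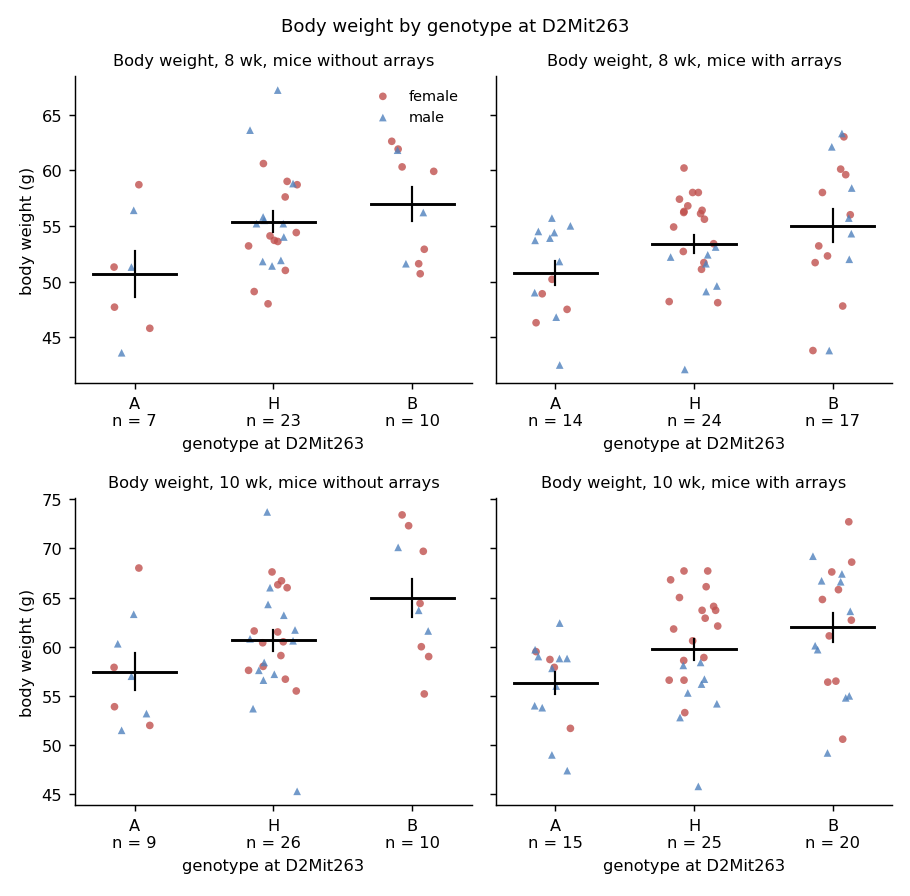
Body weight in g at 8 weeks (top) and 10 weeks (bottom) by genotype at D2Mit263, in mice without arrays (left) and with arrays (right). Each point is a mouse (circles female, triangles male), thick lines are means and thin lines ± SE; medians without arrays were 57 g in A, 60.6 g in H and 64.1 g in B mice at 10 weeks.

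Insulin, the hormone with the highest LOD score at D2Mit263 in the mice with arrays, did not show that relation in the mice without them. At 10 weeks the 9 A mice without arrays had 8.70 to 104 ng/ml (median 48.4), the 26 H mice 5.90 to 111 ng/ml (median 30) and the 10 B mice 10.7 to 42 ng/ml (median 16.9). The ranges overlapped, with 7 of 9 A mice above the B median and 0 of 10 B mice above the A median. In the mice with arrays the order was the opposite: the 14 A mice ranged from 2.80 to 52 ng/ml (median 5.75), the 23 H mice from 4.90 to 70.0 ng/ml (median 37.3) and the 20 B mice from 5.10 to 104 ng/ml (median 38.3). There, 19 of 20 B mice were above the A median.

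On the log10 scale the slope per B allele was -0.15 ± 0.07 without arrays (LOD score 0.951, permutation p = 0.131, adjusted 0.532) and 0.31 ± 0.06 with arrays (LOD score 6.79, adjusted permutation p = 1.10e-04). Without arrays, other forms of the test gave unadjusted p of 0.0453 for the homozygotes (exact permutation), 0.0426 for the slope and 0.0266 with sex as a covariate (slope -0.18), and none passed adjustment. The geometric mean in B homozygotes was 0.512 times that in A homozygotes without arrays and 4.70 times with arrays. The slopes differed by -0.46 ± 0.09 (95% interval -0.64 to -0.28, adjusted permutation p = 0.00330, array labels permuted within each genotype). The marker was described from the mice with arrays, so the slope with arrays, and this difference, are not independent of its choice. With the mean of each sex over both sets taken off the trait first, the difference was -0.46 (adjusted permutation p = 0.00154). It was -0.47 within females (adjusted permutation p = 0.0561), -0.42 within males (0.0677), and -0.43 among the 31 and 14 mice heterozygous at D5Mit240 (0.229). The part of the selection of mice, of sex and of the rest of the genome in this difference was not tested beyond those values.

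At 8 weeks insulin was nearly the same in the genotype groups of the mice without arrays. The geometric means without arrays were 21.5 ng/ml in 7 A, 22.7 in 23 H and 22.95 in 10 B mice, and the slope was 0.01 ± 0.07 on the log10 scale (permutation p = 0.976). With arrays, A mice had a geometric mean of 11.2 ng/ml, H mice 34.4 and B mice 29.0 (adjusted permutation p = 1.10e-04 for the 3 groups). The slope there was 0.19 ± 0.05 (adjusted permutation p = 0.00484 for the slope). The difference of slopes, -0.18 with a 95% interval of -0.35 to -0.02, did not pass adjustment (permutation p = 0.0462, adjusted 0.169).

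**Figure D2:**
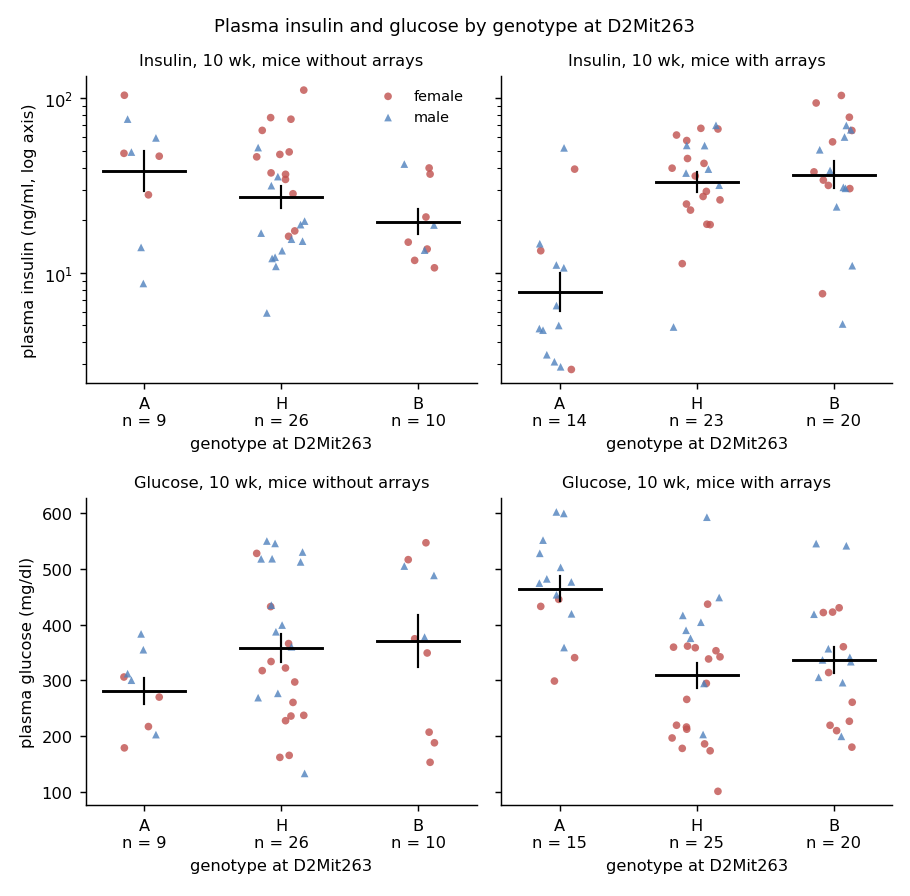
Plasma insulin in ng/ml (top, log axis) and glucose in mg/dl (bottom) at 10 weeks by genotype at D2Mit263, in mice without arrays (left) and with arrays (right). Each point is a mouse (circles female, triangles male), thick lines are means (geometric for insulin) and thin lines ± SE; A mice hold the highest median insulin without arrays (48.4 ng/ml) and the lowest with arrays (5.75 ng/ml).

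Glucose at 10 weeks also changed sign between the sets, with the order of the genotypes turned round from that of insulin. At 10 weeks the 9 A mice without arrays had 180 to 383 mg/dl (median 300.5), the 26 H mice 134 to 549 mg/dl (median 347) and the 10 B mice 154 to 546 mg/dl (median 376). The groups overlapped widely, and no A mouse exceeded 383 mg/dl. In the mice with arrays the A mice were the high group, at 299 to 601 mg/dl (median 474), against medians of 339 in H and 335 in B mice. Each B allele went with 43.9 ± 28.5 mg/dl without arrays (permutation p = 0.222) and with -58.5 ± 19.2 mg/dl with arrays (adjusted permutation p = 8.07e-04). The slopes differed by 102.4 ± 34.4 mg/dl (95% interval 35.04 to 170, adjusted permutation p = 0.0214). As for insulin, the slope with arrays is not independent of the choice of the marker. The difference was 105.96 mg/dl with the mean of each sex over both sets taken off first (adjusted permutation p = 0.00462). It was 142.6 mg/dl within males (adjusted permutation p = 0.0126), 62.5 mg/dl within females (0.499) and 122.3 mg/dl among the mice heterozygous at D5Mit240 (0.278). At 8 weeks the slopes were 9.07 ± 26.8 mg/dl without and -41.2 ± 19.7 mg/dl with arrays, and their difference did not pass (permutation p = 0.132).

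Scd1 transcript varied with D2Mit263 in the mice with arrays, and in the mice without arrays its slope had the same sign but did not pass the test. Delta Ct without arrays ran from 0.44 to 2.63 (median 1.93) in 7 A mice, from -0.81 to 3.48 (median 2.08) in 26 H mice and from 0.90 to 3.23 (median 2.53) in 10 B mice. The groups overlapped, with 9 of 10 B mice above the A median. Each B allele went with 0.36 ± 0.21 Ct (LOD score 0.786, permutation p = 0.182, adjusted 0.532), and the 95% interval of -0.06 to 0.79 held 0. With arrays, the slope was 0.71 ± 0.23 Ct (adjusted permutation p = 0.0180 for the slope and 0.00418 for the 3 groups). That call was lost on ranks (adjusted permutation p = 0.0752) and with D5Mit240 as a covariate, where the slope was 0.42 Ct (0.0892). There 6 of 15 A mice lay below 0, the lowest at -2.78, while 0 of 7 A mice without arrays did. The 2 mice below 0 without arrays were heterozygotes. The slopes differed by -0.35 Ct, with a 95% interval of -0.96 to 0.27 (permutation p = 0.427). That is an interval that holds both no difference and a difference as large as the slope with arrays. In whole liver, fewer cells of a type and less RNA per cell cannot be told apart.

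Pck1 had an unadjusted p under 0.05 in both sets, with another order of the genotypes in each, and was chosen after its values were seen. Without arrays, delta Ct ran from -1.34 to 0.44 (median -0.02) in 7 A mice, from -2.35 to 0.79 (median -0.83) in 26 H mice and from -1.27 to 0.92 (median -0.18) in 10 B mice. Heterozygotes were the low group there (permutation p = 0.0475, adjusted 0.308). With arrays the medians stepped from -0.10 in A through -0.37 in H to -0.60 in B mice (permutation p = 0.0431, adjusted 0.0862). The slopes were 0.19 ± 0.20 Ct without and -0.33 ± 0.13 Ct with arrays, and their difference of 0.52 Ct did not pass adjustment (permutation p = 0.0262, adjusted 0.122). Within males the difference was 1.07 Ct and passed (19 and 29 mice, adjusted permutation p = 0.0126), and within females it was 0.15 Ct (adjusted permutation p = 0.876). These subsets were added after seeing the data, and the males without arrays held only 3 A and 3 B mice. Whether the sexes differed in it was not tested. Without the mouse farthest from the median, p for the groups without arrays was 0.0702.

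**Figure D3:**
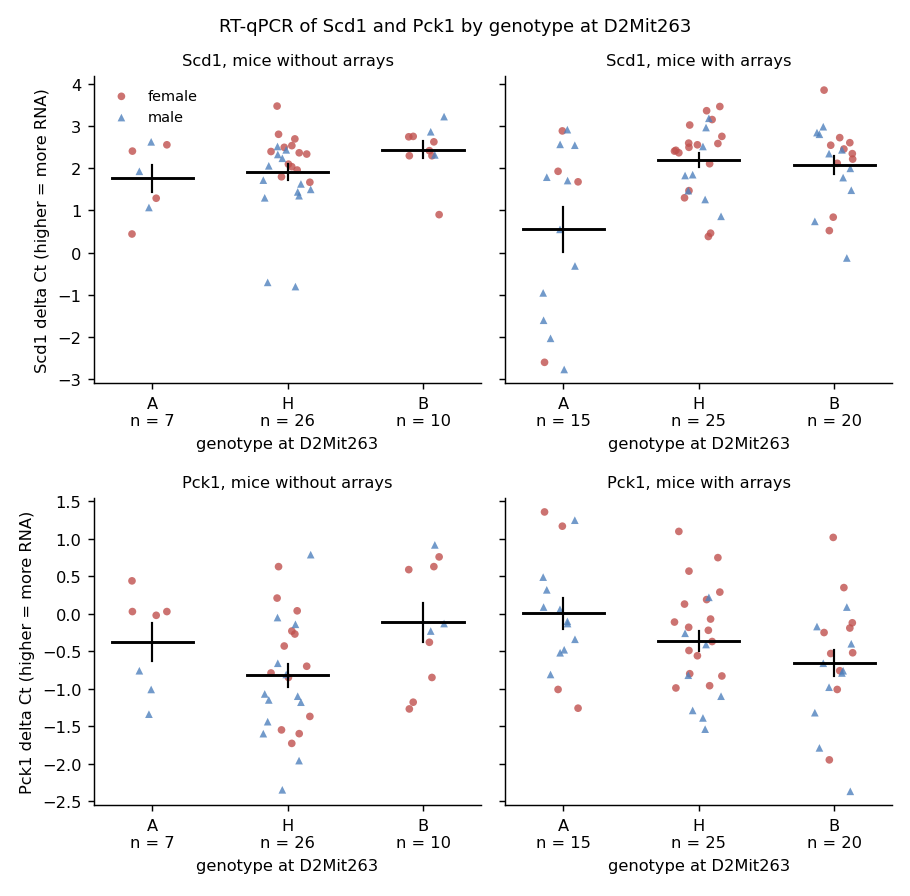
Delta Ct of Scd1 (top) and Pck1 (bottom) by genotype at D2Mit263, in mice without arrays (left) and with arrays (right), with higher values read as more RNA. Each point is a mouse (circles female, triangles male), thick lines are means and thin lines ± SE; for Scd1, 6 of 15 A mice with arrays and 0 of 7 without arrays lie below 0.

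Across all 22 traits, 3 had an unadjusted p under 0.05 at D2Mit263 in the mice without arrays, which is 13.6%, and these were body weight at both ages and Pck1. Over all 4268 pairs of a marker and a trait in the same mice, 5.72% did. The 2 body weights come from the same mice (r = 0.85 between ages), so the 3 traits are not independent. After adjustment 0 of 22 passed (0%, permutation test, smallest adjusted p 0.308). In the mice with arrays 11 of 22 had an unadjusted p under 0.05 (50%), against 8.22% over all markers, and 10 passed adjustment (45.5%). The locus was described from those mice, so their share above that of all markers is no separate evidence for it. Those 10 were glucose, insulin and triglyceride at both ages, body weight at 10 weeks, liver triglyceride, Scd1 and phospholipid transfer protein (Pltp), which moves phospholipid between lipoproteins. When the per-allele slope was tested in place of the 3 groups, 9 traits passed. Glucose at 8 weeks (adjusted permutation p = 0.0826), triglyceride at 8 weeks (0.0877) and Pltp (0.149) then did not pass. Body weight at 8 weeks (0.0403) and Pck1 (0.0337) did. With sex as a covariate, glucose at 8 weeks (adjusted permutation p = 0.0865), body weight at 10 weeks (0.0954), Pltp and triglyceride at both ages (0.142 each) no longer passed and Pck1 did (0.0368). With D5Mit240 as a covariate, body weight at 10 weeks, both triglycerides, liver triglyceride, Pltp and Scd1 no longer passed and Pparg did, and the slope of Pltp was 0.16 Ct and that of liver triglyceride 0.07 on the log10 scale. The signs of the slopes were the same in both sets for 13 of 22 traits. The difference of slopes had an unadjusted p under 0.05 for 6 of 22 traits (27.3%), and 2 passed adjustment (9.09%), insulin and glucose at 10 weeks.

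No lipid trait of the mice without arrays passed the test against genotype. Liver triglyceride was 386 to 947 mg/g (median 633) in 9 A mice, 36.7 to 1039 mg/g (median 710) in 26 H mice and 125 to 1025 mg/g (median 528) in 10 B mice. Its log10 slope was -0.05 ± 0.06 without arrays (permutation p = 0.711) and 0.11 ± 0.04 with arrays (adjusted permutation p = 0.0369), a difference of -0.16 that did not pass adjustment (permutation p = 0.0278, adjusted 0.122). That difference was -0.24 within males (adjusted permutation p = 0.0203), -0.11 within females (0.569) and 0.03 among the mice heterozygous at D5Mit240 (0.809). The 95% interval within males, from the SEs, was -0.49 to 0.01 and held 0. The males without arrays held only 3 B mice. Plasma triglyceride gave log10 slopes of -0.04 ± 0.05 at 8 weeks and 0.02 ± 0.04 at 10 weeks without arrays, against -0.05 ± 0.02 and -0.06 ± 0.02 with arrays. The 95% intervals without arrays, -0.14 to 0.06 and -0.07 to 0.11, held the slopes with arrays. The differences of slopes did not pass (adjusted permutation p = 0.897 and 0.235), and only 4 A mice without arrays had a value at 8 weeks. Pltp had slopes of 0.05 ± 0.21 Ct without and 0.45 ± 0.26 Ct with arrays. The 95% interval without arrays, -0.38 to 0.48 Ct, held the slope with arrays, and the difference did not pass (adjusted permutation p = 0.650). The fat synthesis genes other than Scd1 had slopes smaller than their SE in the mice without arrays. They were 0.01 ± 0.15 Ct for Fasn, which builds palmitate, -0.01 ± 0.15 Ct for Gpam, the first acyltransferase of triglyceride synthesis, and -0.11 ± 0.18 Ct for Srebf1, a transcription factor that turns on lipid synthesis genes. Pparg, a nuclear receptor that promotes fat storage, had 0.06 ± 0.21 Ct. Pltp, Fasn and Pparg each had values in only 5 A mice without arrays. The fat oxidation genes did not pass either, with permutation p from 0.162 for Cpt1a to 0.547 for Cpt1b, its muscle form, and 0.403 for peroxisomal acyl-CoA oxidase. Uncoupling protein 2, a mitochondrial carrier, gave 0.675 and the beta-actin Ct 0.242. Protein disulfide isomerase had a slope of 1.30 ± 0.54 Ct without arrays (permutation p = 0.0561) and -0.23 ± 0.35 Ct with arrays, and their difference did not pass adjustment (permutation p = 0.0132, adjusted 0.0967). Only 5 A mice without arrays had a value, from -4.63 to 0.62. This transcript went with D11Mit48 in both sets, and the part of that marker in these slopes was not tested.

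**Figure D4:**
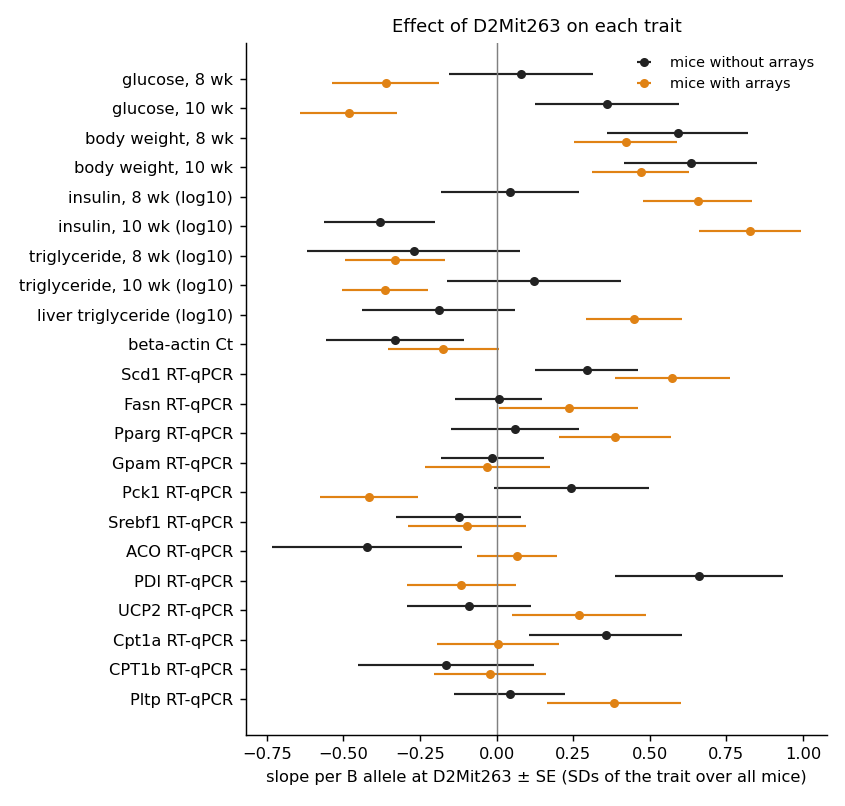
Slope per B allele at D2Mit263 for the 22 traits, in SDs of each trait over all mice, with bars of ± SE, in mice without arrays (black) and with arrays (orange). Body weight lies to the right of 0 in both sets, while insulin and glucose at 10 weeks lie on opposite sides. ACO is peroxisomal acyl-CoA oxidase, PDI protein disulfide isomerase, UCP2 uncoupling protein 2 and CPT1b the muscle carnitine palmitoyltransferase.

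Along Chromosome 2 the profiles differed between traits. In the mice without arrays the LOD score of 10-week weight was 1.11 at D2Mit194 (85.4 cM), 1.80 at D2Mit263, 1.40 at D2Mit51 (101.7 cM) and highest on this chromosome, 2.10, at D2Mit148 (121.6 cM), the last marker. It was 0.965 at D2Mit297 (25.5 cM) and 0.774 at D2Mit9 (42.9 cM), the marker that gave the highest score with arrays, 3.04. D2Mit263 ranked 7 of 194 markers for this trait without arrays, where 19 markers had p under 0.05, and D3Mit306 ranked first with 2.29. With arrays D2Mit263 ranked 9. Insulin at 10 weeks ranked D2Mit263 first with arrays and 29 of 194 without, where its highest score on the chromosome was 2.16 at D2Mit241 (26.4 cM) and that of the genome 3.56 at D13Mit16. For Scd1, D2Mit263 ranked 4 with arrays, where D2Mit51 ranked first at 3.63, and 39 without arrays, where D2Mit106 (77.9 cM) gave 1.84 and D9Mit21 on Chromosome 9 gave 4.96. No trait of the mice without arrays reached the LOD score of 3.4 at D2Mit263, and 3 did with arrays.

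**Figure D5:**
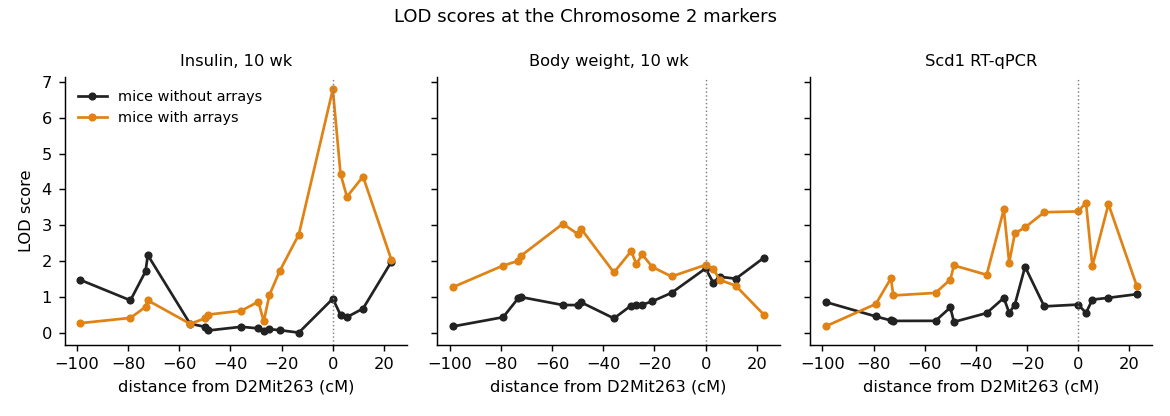
LOD score at the 18 Chromosome 2 markers against their distance in cM from D2Mit263, for insulin and body weight at 10 weeks and Scd1, in mice without arrays (black) and with arrays (orange). The insulin score at D2Mit263 is 6.79 with arrays and 0.951 without, and the weight scores there are 1.89 and 1.80.

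Scd1 was also set against each other trait over the mice without arrays, whatever their genotype. Liver was taken at 14 weeks and plasma and weight at 8 and 10 weeks, so those relations join different ages. Each delta Ct is set against the beta-actin Ct of the same mouse, so its error can raise correlations between genes. The beta-actin Ct itself gave r = 0.16 and rho = 0.13 with Scd1 (adjusted permutation p = 0.319 and 0.446). The part of that error in the relations was not tested. Of 21 relations, 9 passed adjustment for r (permutation test), 6 above 0 and 3 below. The closest was Gpam, with r = 0.75 and rho = 0.64 over 47 mice (adjusted permutation p = 2.10e-04 and 4.20e-04) and r = 0.64 after the 2 mice with the most extreme Scd1 were left out. Pltp gave r = 0.45 and rho = 0.43 over 39 mice (adjusted permutation p = 0.0211 and 0.0367), and 0.38 without those mice. Triglyceride at 8 weeks gave r = -0.45 and rho = -0.43 over 39 mice (adjusted permutation p = 0.0211 and 0.0367), and -0.36 without them. Liver triglyceride gave r = 0.54 but rho = 0.17 over 46 mice (adjusted permutation p = 0.00945 and 0.347), and 0.32 without them. Insulin at 10 weeks gave r = 0.35 and rho = 0.28 over 46 mice (adjusted permutation p = 0.0439 and 0.115). Glucose at 10 weeks gave r = -0.37 and rho = -0.37 over 47 mice (adjusted permutation p = 0.0285 and 0.0441). With the 2 most extreme mice for Scd1 left out, r was 0.19 for insulin (permutation p = 0.210) and -0.22 for glucose at 10 weeks (permutation p = 0.139), and r was 0.29 for Fasn (permutation p = 0.0744), 0.24 for Srebf1 (0.116) and -0.23 for glucose at 8 weeks (0.141), so these values of r no longer held without those mice. In residuals after sex and the genotype at D2Mit263, 7 relations passed for r, 6 above 0 and 1 below. There insulin at 10 weeks gave r = 0.43 and rho = 0.49 over 43 mice (adjusted permutation p = 0.0125 and 0.0113) and Srebf1 r = 0.45 and rho = 0.44 over 43 mice (0.0120 and 0.0140). Without the 2 most extreme mice r was 0.36 for insulin (permutation p = 0.01999) and 0.37 for Srebf1 (0.0193). For Gpam, liver triglyceride and Pltp r also kept a permutation p under 0.05. The relation below 0 was glucose at 10 weeks (r = -0.38, adjusted permutation p = 0.0404). Without those mice its r was -0.29 (permutation p = 0.0687) and that of Fasn 0.29 (0.0924), so these 2 no longer held. Glucose at 8 weeks (r = -0.31, adjusted permutation p = 0.0998) and triglyceride at 8 weeks (r = -0.31, 0.121) did not pass for r in the residuals, while rho for triglyceride was -0.44 (0.0236). Body weight at 10 weeks did not follow Scd1, with r = -0.0012 and rho = -0.04 (adjusted permutation p = 0.994 and 0.781).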

How the data were processed

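The table of 110 mice as deposited by the authors holds other units by column: glucose and triglyceride in mg/dl, insulin in ng/ml, weight in g, liver triglyceride in mg/g tissue, the Ct of beta-actin, delta Ct of 12 genes and genotype letters at 194 markers. The 60 mice shared with the smaller table agreed in every cell (0 differed). The other 50 rows carry no array and no sample of the series, and each was used with the genotype in its own row. The deposited MOE430A values are log2, made by the authors with MAS5 and RMA (no source used here gives the version of RMA), and served only to read the sign of the RT-qPCR columns. The MOE430B values and a table of fewer markers were not used here.

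Insulin and both triglycerides were turned to log10. Each trait was tested against the 3 genotype groups at D2Mit263 with F and 100000 permutations of mice, with Benjamini-Hochberg adjustment over the 22 traits. The per-allele slope counts B alleles, with its least squares SE. The p beside it is that of the 3 groups unless another test is named. Homozygotes were compared by exact permutation where the counts allowed. The difference of slopes between sets was tested by permuting the array label within each genotype. All other tests were two-sided. Genotype proportions were tested by exact enumeration. LOD scores came from single-marker regression, and p over all markers from the F distribution. Correlations used 100000 permutations, and leaving out single mice 10000. Adjusted p-values under 0.05 were called. Traits described in full were Scd1 and the 10 with the smallest p in either set. The members, traits and lists were chosen with earlier results of these data known. Alternatives changed the scale, covariates, markers, contrast and mice. The tests were checked on simulated data. Python 3.11.15, numpy 2.4.6, scipy 1.17.1, pandas 2.3.3 and matplotlib 3.10.9 were used. Each mouse was a separate animal, and precision is limited by how many there were.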

Additional observations from a re-analysis of the deposited data

Results flagged for a closer look

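The slope of insulin at 10 weeks per B allele differed by -0.46 on the log10 scale between the mice without and with arrays, and that of glucose at 10 weeks by 102.4 mg/dl, each past the adjusted threshold of the permutation test of the difference. The marker was described from the mice with arrays, so these differences are not independent of its choice.

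Among the 44 homozygote groups of the mice without arrays with 4 to 10 members, 5 held a mouse far from the others, where chance gives about 5% of groups. Insulin at 8 weeks was 68.4 ng/ml in an A mouse, with the next at 34 ng/ml, and 56.7 ng/ml in a B mouse, with the next at 33.2 ng/ml. Scd1 delta Ct was 0.90 in a B mouse, with the next at 2.30. Peroxisomal acyl-CoA oxidase delta Ct was -7.28 in a B mouse, with the next at -1.79, and without it the slope for that gene went from -0.44 ± 0.32 to -0.08 ± 0.23 Ct per B allele. Protein disulfide isomerase delta Ct was -4.15 in a B mouse, with the next at -0.24. That value lies within the range of A mice at D11Mit48 (-7.04 to -3.35). It is below the lowest values of H (-4.04) and B mice (-0.24) at that marker. The call of this mouse at D11Mit48 was not examined.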

How the results depend on the processing

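No trait passed adjustment in the mice without arrays under any alternative run on those mice alone (0 of 22), including the LOD score of 3.4 and leaving out each mouse (0 to 0). An unadjusted p under 0.05 gave 3 traits, and all mice of the larger table gave 5, where the insulin slope at 10 weeks turned to 0.15. In the mice with arrays the 10 calls became 6 without the log, 5 with ranks, 6 with sex as a covariate, 5 with D5Mit240 as a covariate, 1 for heterozygotes against homozygotes, 3 at D2Mit194 and 6 at D2Mit51. Alternatives added after seeing the data gave 1 in females, 1 in males and 3 among D5Mit240 heterozygotes. There, glucose at 8 weeks turned to a slope of 9.03 mg/dl in females and liver triglyceride to -0.0480 among D5Mit240 heterozygotes. The 2 differences between sets became 0 among D5Mit240 heterozygotes and 0 in females, and 3 in males, where glucose at 10 weeks, Pck1 and liver triglyceride passed and insulin at 10 weeks did not; these were added after seeing the data. Genotype proportions with arrays gave an exact p of 0.0402 in males. These subsets hold fewer mice, with only 3 B males without arrays, and the cause of the other changes was not tested. No paired analysis was possible because the genotype groups and the sets hold different mice, and numbers are shared only by the 2 array types of a mouse, which were not compared.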

Other observations

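The change of insulin between 8 and 10 weeks was set against genotype, a comparison chosen after the values were seen, and the difference between the sets was not tested. Without arrays, insulin was higher at 10 than at 8 weeks in 6 of 7 A mice, 15 of 23 H mice and 4 of 10 B mice, with mean log10 changes of 0.18 ± 0.21 (SD), 0.09 ± 0.23 and -0.07 ± 0.30. The groups did not differ past the threshold (slope -0.13 ± 0.06 per B allele, permutation p = 0.114). With arrays it was higher in 5 of 13 A mice, 12 of 22 H mice and 10 of 17 B mice, with a slope of 0.09 ± 0.05 (permutation p = 0.180). Body weight went up in all 7 A and all 10 B mice without arrays and in 21 of 23 H mice.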
